A study of Mus musculus with 16 samples.

Results

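Tmc7, Tmc6, Tmc8 and Tmc4 belong to the transmembrane channel-like (TMC) genes, and their levels in mouse microglia were followed across 16 mice. The 4 genes were taken by symbol from a table of 20267 genes, which lists 5 TMC genes in all, and their 17 listed transcripts were taken from a table of 61144. Tmc7 was selected on its measured level in these same mice, which was lower with the Alzheimer's disease (AD) transgenes and lower with loss of p38α, so its levels and fold changes are given as a description with no test. The other members were taken as its relatives, and their changes were tested. Tmc1, Tmc2 and Tmc3 were not analysed here, and Tmc5, the neighbour of Tmc7, is described where its values stand beside those of Tmc7.

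The mice were 11 months old on a C57BL/6J background, and all of them carried the floxed p38α gene (Mapk14, p38fl/fl) and ate a tamoxifen diet for 4 weeks from 5 months of age. WT p38+/+ mice carried neither the AD transgenes nor Cre. WT p38KO mice carried 1 Cx3cr1-creERT2 allele, AD p38+/+ mice were hemizygous for APPswe/PS1dE9, and AD p38KO mice carried both, with 4 mice in each of the 4 groups. Cre was driven from the Cx3cr1 locus and replaced 1 copy of that gene, and no control mouse carried Cre, so loss of p38α, the Cre protein and the lost Cx3cr1 copy cannot be told apart here. Microglia were sorted from each mouse as live cells positive for CD11b and P2ry12, and the sorted RNA was sequenced as 1 library a mouse. The numbering of the mice within a group carries no pairing between groups.

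TMC proteins span the membrane many times and are related to the anoctamin and TMEM63 families of channels and lipid scramblases. TMC1 and TMC2 are known as parts of the mechanically gated channel of hair cells in the inner ear. TMC6 and TMC8, also called EVER1 and EVER2, are best known from skin and lymphocytes, where they bind CIB1 and the zinc transporter SLC30A1, and loss of either gene in people brings susceptibility to certain papillomaviruses. TMC4 is known from epithelia and taste cells, and TMC7 is among the less studied members.

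Levels are given in CPM, reads scaled to the total of each library, the unit of the deposited tables. A CPM stood for 12.3 to 16.4 reads depending on the library (median 13.9), so that 3 reads, the floor used here, lay between 0.183 and 0.244 CPM. All 6 microglial markers were listed in every library and summed to 46632 to 57027 CPM, whereas 5 neuronal markers summed to at most 3.83 CPM. Other lists were higher, with sums of 82.5 to 144 CPM for oligodendrocytes, 8.42 to 86.7 CPM for border-associated macrophages and 13.98 to 225 CPM for epithelium and choroid plexus. The main p38α transcript stood at 68.6 ± 16.003 CPM (SD, n = 4) in WT p38+/+ mice, next to 65.7 ± 5.38 CPM in AD p38+/+ mice. In p38KO mice it stood at 0.110 ± 0.0703 CPM (WT) and 0.128 ± 0.0832 CPM (AD), so no library went against its p38 label. The AD p38KO libraries stood apart in complexity, with 15467 to 16833 genes detected against 16971 to 18039 in the other groups. AD p38KO mouse 4 had the fewest. AD p38KO mouse 1, labelled female, had 0 CPM of both Xist and the Y-linked Ddx3y and carried 9.85 CPM of the monocyte gene Ly6c2, which was at most 0.655 CPM in any other library. For the TMC genes, values that turn on these 2 mice are therefore also given without them.

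The sequences that separate the 2 main forms of Tmc7 are shown first, because the share of the retained-intron form in the Tmc7 level was lowest in AD p38KO mice. The forms were not compared with a test. Tmc7 (ENSMUSG00000042246) lies on the minus strand of chromosome 7 from 118535841 to 118584736 (GRCm38). Its full transcript (ENSMUST00000044195) has 16 exons, is 4546 bases long and codes for 726 amino acids. A second transcript, annotated as a retained intron (ENSMUST00000153635), has 11 exons and follows the full transcript up to the end of exon 11. It then runs on for 732 of the 1528 bases of the next intron and ends there. Both sequences are from GENCODE M21, 5′ to 3′ on the minus strand, with the last 40 bases of exon 11 in lower case and the following 60 bases in capitals.
ENSMUST00000044195: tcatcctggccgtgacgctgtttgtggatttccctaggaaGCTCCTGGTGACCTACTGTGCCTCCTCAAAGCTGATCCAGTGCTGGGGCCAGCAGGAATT
ENSMUST00000153635: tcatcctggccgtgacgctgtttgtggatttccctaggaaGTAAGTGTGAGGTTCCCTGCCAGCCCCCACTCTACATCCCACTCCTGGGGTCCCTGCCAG
In the full transcript the capitals are the start of exon 12, and in the retained-intron transcript they are intron, at chr7:118547257-118547316. Reading on in the frame of the full transcript, a stop codon begins at base 2 of the intron, after 516 codons. The annotation gives the retained-intron transcript no coding sequence.

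Tmc7 was highest in mice with neither manipulation, lower with either, and lowest with both. In WT p38+/+ mice 1 to 4 its level was 50.2, 45.3, 49.9 and 34.9 CPM, with a mean of 45.1 ± 7.15 CPM (SD, n = 4). In WT p38KO mice it was 28.5, 29.0, 29.3 and 24.6 CPM, a mean of 27.9 ± 2.17 CPM (n = 4), so that every WT p38KO mouse lay below every WT p38+/+ mouse. In AD p38+/+ mice it was 21.6, 33.2, 27.2 and 30.1 CPM, a mean of 28.1 ± 4.95 CPM (n = 4), also below every WT p38+/+ mouse. In AD p38KO mice it was 21.3, 20.6, 21.7 and 13.1 CPM, a mean of 19.2 ± 4.10 CPM (n = 4). These lay below all WT p38KO mice, whereas the highest of them overlapped the lowest AD p38+/+ mouse. Tmc7 was chosen as lower in these groups, and the share of all genes that separate in this way was not counted. Each Tmc7 value rested on 193 to 744 reads.

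In the order of the group means, WT p38+/+ stood first. AD p38+/+ and WT p38KO were next and did not differ beyond their spread, with 62.3% and 61.8% of the WT p38+/+ mean. AD p38KO was last with 42.5% of that mean, or 2.35-fold lower. Without AD p38KO mouse 4, the lowest of all 16, the AD p38KO mean was 21.2 ± 0.569 CPM (n = 3), and without mice 1 and 4 it was 21.2 ± 0.801 CPM (n = 2). Less Tmc7 RNA per cell and fewer cells that contain it cannot be told apart in sorted bulk RNA.

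**Figure D1:**
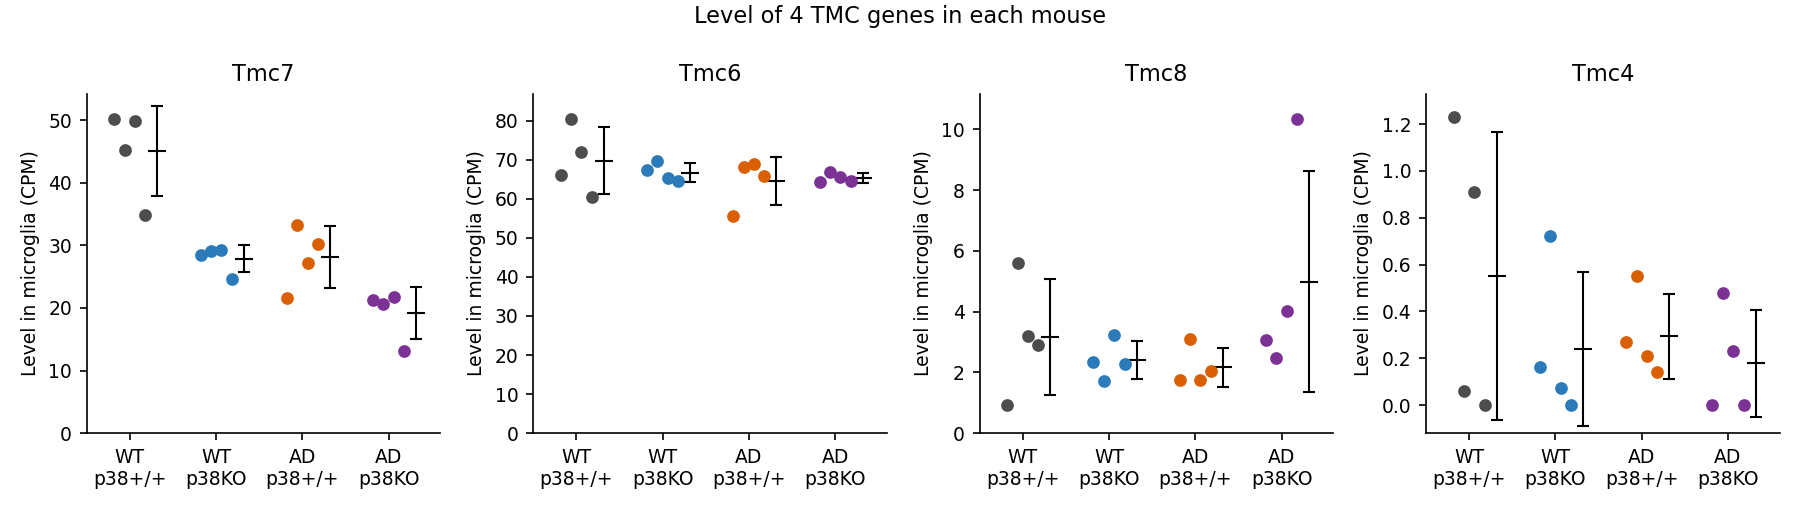
Levels of Tmc7, Tmc6, Tmc8 and Tmc4 in CPM (vertical axes, a separate linear scale for each gene) in the 4 groups, with a point for each mouse in the order of its number and the bar giving mean ± SD (n = 4). Tmc7 falls from 45.1 CPM in WT p38+/+ to 19.2 CPM in AD p38KO mice, Tmc6 stays between 55.6 and 80.5 CPM, Tmc8 has 1 high AD p38KO mouse at 10.4 CPM, and Tmc4 does not pass 1.23 CPM.

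On the log2(CPM + 0.5) scale, the difference in Tmc7 between AD and WT was -0.68 (SE 0.19) in p38+/+ mice and -0.55 (SE 0.19) in p38KO mice. Between p38KO and p38+/+ it was -0.67 (SE 0.19) in WT and -0.55 (SE 0.19) in AD mice. These 4 contrasts share groups pairwise and are not independent of each other. Averaged over the other factor, the difference was -0.61 (SE 0.13) for AD and -0.61 (SE 0.13) for p38KO. The difference between the AD effects in the 2 p38 genotypes was 0.12 (SE 0.26). Without AD p38KO mouse 4, the p38KO difference in AD mice and the AD difference in p38KO mice were both -0.38.

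Per kilobase of transcript, the scale on which levels of different genes can be set side by side, Tmc7 was second to Tmc6. In WT p38+/+ mice Tmc6 stood at 28.3 ± 4.48 CPM per kb (n = 4), higher than 80.3% of the 13896 genes tested with a known length. Tmc7 stood at 11.3 ± 2.16 CPM per kb, higher than 58.3% of them, and Tmc8 at 1.40 ± 0.737 CPM per kb, higher than 19.05%. Tmc4 (0.505 ± 0.633 CPM per kb) and Tmc5 (0.482 ± 0.0645 CPM per kb) lay near the bottom. Per kb, Tmc6 was 2.56 ± 0.471 times as high as Tmc7 in WT p38+/+ mice and 3.90 ± 0.251 times in WT p38KO mice. It was 4.05 ± 0.588 times as high in AD p38+/+ mice, and 5.89 ± 1.28 times with both manipulations (SD, n = 4 each). The change of this ratio between groups restates the Tmc7 levels, on which that gene was chosen, and is no separate result.

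The loss of Tmc7 signal was carried mainly by the full transcript, and the longer retained-intron form (ENSMUST00000153635) was nearly absent in AD p38KO mice. The full transcript made up 89.3 to 99.4% of the Tmc7 level in the 16 mice. It was 44.9, 43.1, 46.1 and 31.8 CPM in WT p38+/+ mice 1 to 4 and 26.6, 27.2, 26.3 and 22.3 CPM in WT p38KO mice. It was 20.6, 30.0, 26.5 and 29.6 CPM in AD p38+/+ and 21.02, 19.6, 21.5 and 12.7 CPM in AD p38KO mice. The group order was that of the gene.

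The retained-intron transcript, whose junction is shown above, was 4.54, 1.93, 3.21 and 3.01 CPM in WT p38+/+ mice 1 to 4. It was 1.70, 1.72, 2.65 and 2.05 CPM in WT p38KO mice and 1.01, 3.03, 0.713 and 0.312 CPM in AD p38+/+ mice. In AD p38KO mice it reached 0.467 CPM in mouse 2 and stayed between 0 and 0.0298 CPM, under the floor of 3 reads, in mice 1, 3 and 4. AD p38KO mice thus overlapped neither WT group, and they overlapped AD p38+/+ mice through mouse 4 of that group. The share of all transcripts that separate in this way was not counted. Without AD p38KO mice 1 and 4 the remaining pair averaged 0.234 ± 0.330 CPM and a share of 1.13% ± 1.60 of the Tmc7 level (SD, n = 2). As a share of the Tmc7 level it was 7.09% ± 2.21 and 7.32% ± 1.60 in the WT groups with and without p38α, and 4.36% ± 3.51 and 0.624% ± 1.10 in the corresponding AD groups (SD, n = 4 each). All retained-intron transcripts together took 5.26% ± 0.517, 5.04% ± 0.245, 4.77% ± 0.386 and 4.95% ± 0.531 of the library in the same order of groups, so that the ranges of mean ± SD overlapped for that class as a whole. Over the main effects it differed by -1.65 (SE 0.30) for AD and -0.92 (SE 0.30) for p38KO on the log2(CPM + 0.5) scale, and these sizes grow with a smaller pseudocount (-2.63 and -1.62 at 0.1 CPM). Reads that both forms could have given were divided between them by estimation, which makes the low values of the retained-intron transcript less certain than those of the gene. The AD p38KO libraries also had the fewest genes detected, and the part of this in the low values was not tested. The remaining listed transcript, with 2 exons (ENSMUST00000145989) and also annotated as a retained intron, did not pass 0.819 CPM in any mouse. It averaged 0.448 ± 0.327 and 0.231 ± 0.0971 CPM in the WT groups with and without p38α. In the corresponding AD groups it averaged 0.125 ± 0.146 and 0.316 ± 0.176 CPM (SD, n = 4 each), so it was not lowest in AD p38KO mice. Every group held mice under the floor for it.

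**Figure D2:**
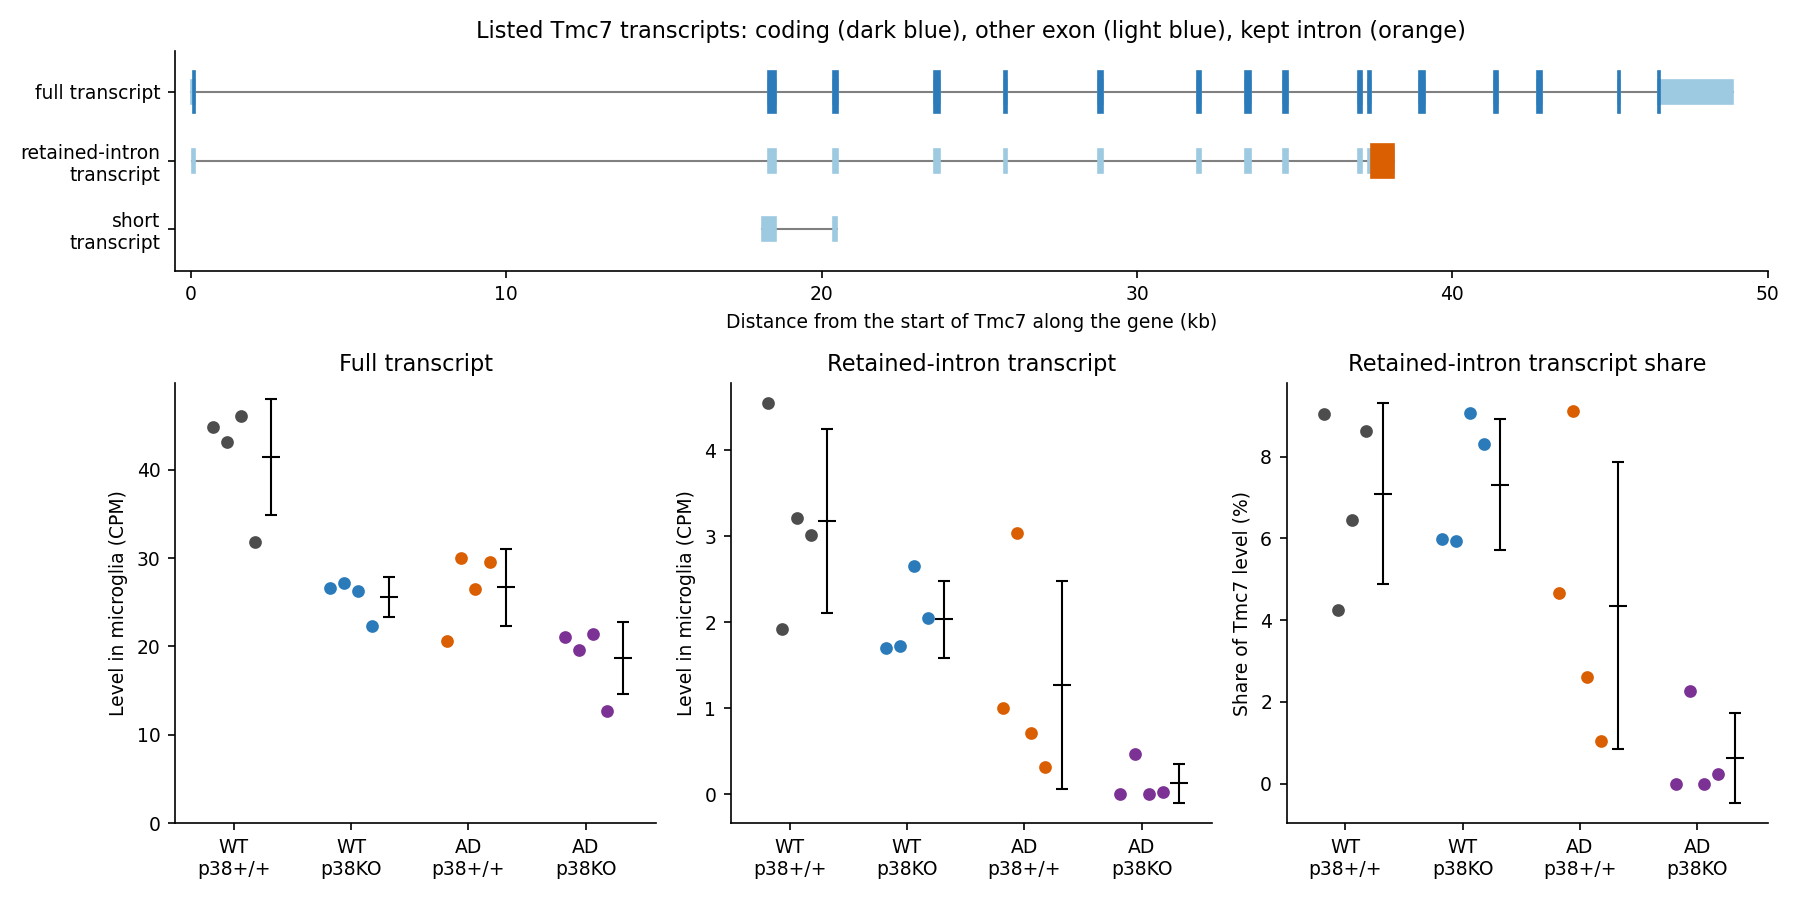
Top, exons of the 3 listed Tmc7 transcripts against distance from the start of the gene in kb, with the intron stretch kept by the retained-intron transcript in orange. Bottom, the levels of the full and the retained-intron transcript in CPM and the share of the retained-intron transcript in the Tmc7 level in percent, with a point a mouse and mean ± SD (n = 4). The retained-intron transcript lies at 1.93 to 4.54 CPM in WT p38+/+ and at 0 to 0.467 CPM in AD p38KO mice.

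Tmc6, the best represented member, was level across all groups. It was 66.2, 80.5, 72.0 and 60.3 CPM in WT p38+/+ mice 1 to 4 and 67.3, 69.8, 65.3 and 64.5 CPM in WT p38KO mice. In AD p38+/+ mice it was 55.6, 68.1, 68.9 and 65.8 CPM and in AD p38KO mice 64.4, 66.9, 65.5 and 64.5 CPM. The ranges of all groups overlapped, and the AD p38KO mice, which had the lowest Tmc7, varied least (65.3 ± 1.19 CPM, SD, n = 4). For AD averaged over p38 genotype the log2 difference was -0.07 (95% interval -0.23 to 0.10, limma, adjusted p = 0.802), and for p38KO it was -0.02 (-0.18 to 0.15, adjusted p = 0.985). The Tmc6 intervals were not set against the fall of Tmc7, a gene chosen on these same contrasts.

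None of the members that were tested (Tmc6, Tmc8 and, by exact permutation, Tmc4) passed an adjusted p of 0.05 in any comparison run. This is to be read against few calls among all 13912 genes tested. Between AD and WT, 0.359% of genes were called in p38+/+ mice and 0.323% in p38KO mice, and 1.03% over both. Between p38KO and p38+/+, 0.00719% were called in WT mice, 0.0503% in AD mice and 0.0791% over both. No gene was called for the difference between the AD effects (0.0%, limma), where 546 genes had an unadjusted p under 0.05. Of 34322 transcripts tested, 0.379% were called for AD and 0.166% for p38KO.

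**Figure D3:**
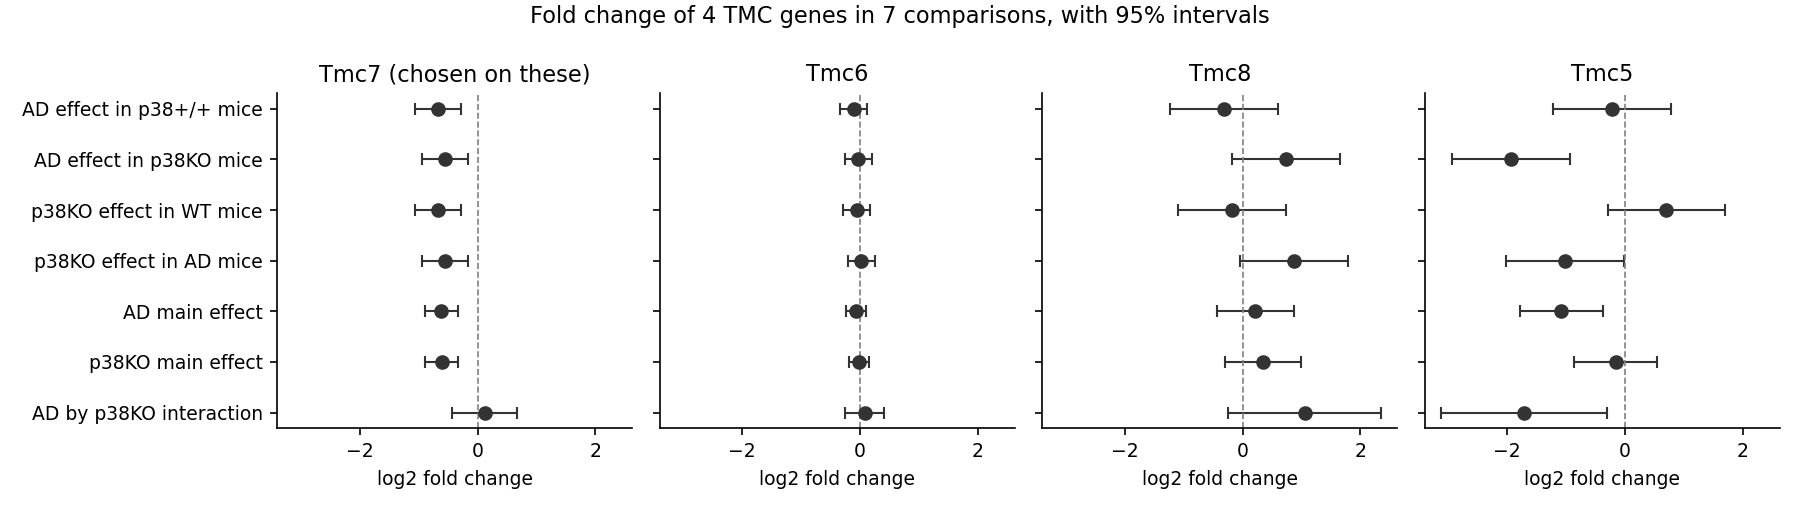
Log2 fold changes (horizontal axis, log2(CPM + 0.5) scale) of Tmc7, Tmc6, Tmc8 and Tmc5 in 7 comparisons, with 95% intervals from the fit over 16 libraries. The Tmc7 differences, on which that gene was chosen, lie between -0.55 and -0.68 in the 4 pairwise comparisons, and those of Tmc6 lie between -0.11 and 0.02. Because of that choice, the Tmc7 intervals show spread only and cannot serve as a test.

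Tmc8, the partner of Tmc6, was scarce and varied from mouse to mouse. It was 0.942, 5.60, 3.19 and 2.89 CPM in WT p38+/+ mice 1 to 4 and 2.36, 1.73, 3.24 and 2.29 CPM in WT p38KO mice. It was 1.74, 3.10, 1.76 and 2.06 CPM in AD p38+/+ mice and 3.08, 2.47, 4.04 and 10.4 CPM in AD p38KO mice. The highest Tmc8 and the lowest Tmc7 of the study were thus in the same library, AD p38KO mouse 4, and all groups overlapped. The log2 difference between p38KO and p38+/+ in AD mice was 0.87 (95% interval -0.05 to 1.79, adjusted p = 0.737), and without mouse 4 it was 0.48 (adjusted p = 0.902). Between AD and WT in p38KO mice it was 0.74 (-0.18 to 1.66, adjusted p = 0.617), and 0.35 without mouse 4. In the other group pairs it was -0.31 for AD in p38+/+ mice (adjusted p = 0.980) and -0.18 for p38KO in WT mice (adjusted p = 1.0, limma).

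Tmc8 is known from lymphocytes, and the 2 listed lymphocyte markers of 8 summed to 0 CPM in AD p38KO mouse 4 and to at most 1.20 CPM anywhere. The monocyte and granulocyte markers, of which 3 of 7 were listed, summed to 7.67 CPM in that mouse and to 3.82 to 25.2 CPM over all mice. The astrocyte markers summed to 28.7 CPM in that mouse, the highest in a range of 1.99 to 28.7 CPM. The part of other cells in its Tmc8 value was not tested. The 95% interval of Tmc8 for p38KO in AD mice ran from 0.968-fold to 3.46-fold.

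Tmc6 and Tmc8 lie head to head on chromosome 11, Tmc6 (ENSMUSG00000025572) on the minus strand from 117765988 to 117782198 and Tmc8 (ENSMUSG00000050106) on the plus strand from 117782076 to 117793110, and their annotated ends overlap by 123 bases. The overlap lies between forms that are not listed. The listed Tmc6 transcripts reach 117780639 at most, and the listed Tmc8 transcripts start at 117782297 or later, so these do not overlap. Whether the counting used strand was not given in the sources used here. The ratio of Tmc6 to Tmc8, in CPM within a mouse, was 32.01 ± 25.7 in WT p38+/+ and 29.3 ± 8.28 in WT p38KO mice. The AD values were 31.3 ± 7.08 with p38α and 17.6 ± 8.81 without it (SD, n = 4 each). In AD p38KO mice the ratio was 20.9, 27.1, 16.2 and 6.23. It overlapped that of AD p38+/+ mice (21.9 to 39.2) through mouse 2. The log2 ratio differed by -0.98 between p38KO and p38+/+ in AD mice (exact permutation test, two-sided, p = 0.0571, adjusted p = 0.171 over 4 comparisons) and by -0.88 between AD and WT in p38KO mice (exact permutation p = 0.0857, adjusted p = 0.171). Without AD p38KO mouse 4 these differences were -0.55 and -0.44, and without mice 1 and 4 they were -0.54 and -0.44. With 4 mice against 4 the smallest p such a test can give is 0.0286. The remaining pairs differed by 0.22 (AD in p38+/+ mice, exact permutation p = 0.714) and 0.11 (p38KO in WT mice, exact permutation p = 0.8286).

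Among the transcripts of this pair, the full Tmc6 transcript (ENSMUST00000026659, 20 exons, 810 codons) held 86.1 to 94.6% of the Tmc6 level. It was 63.2 ± 5.95 and 61.2 ± 2.0006 CPM in the WT groups with and without p38α, and 58.8 ± 5.48 and 59.2 ± 2.23 CPM in the AD groups (SD, n = 4 each). The other 5 listed forms of Tmc6 were each under 5 CPM. Tmc8 was split over 5 forms, of which ENSMUST00000106334 and ENSMUST00000050874 were the highest and code for 723 and 722 amino acids. The first ranged over 0 to 3.47 CPM in WT p38+/+ mice, 0.0822 to 2.24 CPM in WT p38KO mice, 0.00179 to 0.993 CPM in AD p38+/+ mice and 1.77 to 5.25 CPM in AD p38KO mice. Every AD p38KO mouse thus lay above every AD p38+/+ mouse, whereas the WT groups overlapped. AD p38+/+ mice 2 and 3 were under the floor at 0.0758 and 0.00179 CPM. In the same mice ENSMUST00000050874 stood at 1.69 and 1.59 CPM, and reads shared by the forms were divided by estimation. For Tmc8 as a gene the AD groups overlapped. The share of all transcripts that separate in this way was not counted, and this pair was not tested by itself. The log2 difference of ENSMUST00000106334 for p38KO over both backgrounds was 0.89 (SE 0.43, limma, adjusted p = 0.685). No transcript of Tmc6 or Tmc8 passed in either main effect.

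Tmc4 was at the limit of detection. It was 1.23, 0.0609, 0.911 and 0 CPM in WT p38+/+ mice 1 to 4 and 0.163, 0.722, 0.0720 and 0 CPM in WT p38KO mice. In AD p38+/+ mice it was 0.268, 0.552, 0.211 and 0.142 CPM and in AD p38KO mice 0, 0.477, 0.233 and 0 CPM. Only 1 of 16 mice reached 1 CPM, 8 lay under the floor of 3 reads, and the gene did not pass the filter of 1 CPM in 4 libraries. Exact permutation tests on CPM gave differences of -0.26 CPM for AD in p38+/+ mice (p = 0.457), -0.06 CPM for AD in p38KO mice (p = 0.714), -0.31 CPM for p38KO in WT mice (p = 0.4) and -0.12 CPM for p38KO in AD mice (p = 0.457), with adjusted p of 0.610 or more. Tmc4 (ENSMUSG00000019734; chromosome 7, 3665790 to 3677553, minus strand) overlaps Leng1 by 51 bases and holds the antisense gene Gm15929. Its full transcript was not analysed here. The 3 transcripts followed were a pair annotated as retained introns (ENSMUST00000136678 and ENSMUST00000148313) and a 2-exon form (ENSMUST00000145034). Without AD p38KO mice 1 and 4, both at 0, the AD p38KO mean of Tmc4 was 0.355 ± 0.173 CPM (n = 2). A group difference in Tmc4 was not detectable at this depth.

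Tmc5 starts 12560 bases upstream of Tmc7 and points away from it (ENSMUSG00000030650, plus strand, 118597297 to 118675086). It was 1.96, 1.89, 1.44 and 1.61 CPM in WT p38+/+ mice and 1.71, 3.39, 4.82 and 3.15 CPM in WT p38KO mice. Among AD mice it was 1.87, 1.52, 0.915 and 1.42 CPM with p38α and 0, 2.47, 0.544 and 0 CPM without it. Unlike Tmc7, it was thus not lower in WT p38KO than in WT p38+/+ mice, where its log2 difference was 0.70 (SE 0.47, limma, adjusted p = 1.0). Between AD and WT in p38KO mice the difference was -1.94 (SE 0.47), which did not pass (adjusted p = 0.110). The 2 mice at 0 were AD p38KO mice 1 and 4. Without both of them the AD p38KO mean was 1.51 ± 1.36 CPM (SD, n = 2), beside 1.43 ± 0.396 CPM in AD p38+/+ mice (n = 4), and the difference between AD and WT in p38KO mice was -1.03 (limma, adjusted p = 0.649). Without AD p38KO mouse 2, the highest of its group, the difference was -2.49 (limma, adjusted p = 0.00779). Over both p38 genotypes the AD difference was -1.08 (SE 0.33, adjusted p = 0.178), -1.36 (adjusted p = 0.0155) without mouse 2, and -0.63 (adjusted p = 0.415) without mice 1 and 4. Beside these values, the 2 listed epithelial and choroid plexus markers of 4 summed to 15.4 to 73.6 CPM in WT p38+/+ mice, 36.5 to 225 CPM in WT p38KO mice, 37.8 to 203 CPM in AD p38+/+ mice and 13.98 to 86.3 CPM in AD p38KO mice, an order that was not that of the Tmc5 means, and their part in the Tmc5 values was not tested. Most of each sum was Ttr alone, with 222 CPM in WT p38KO mouse 1.

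Calls among genes near the members are to be read against at most 1.03% of all genes called in any comparison. No call among this number of neighbours is near that share. Whether neighbours moved with Tmc7 was not tested. Within 100 kb of Tmc7 the table lists 6 genes, of which Coq7, Itpripl2 and Tmc5 were tested and none was called in any of the 7 comparisons. Coq7, which makes an enzyme of coenzyme Q synthesis and lies 2484 bases beyond the end of Tmc7, was 2.98 to 11.6 CPM over the 16 mice. Around Tmc6 and Tmc8, 8 of 10 listed neighbours each were tested, and none was called. The smallest adjusted p was 0.139, for Syngr2, a synaptic-vesicle family protein that was 0.18 higher (log2, SE 0.05) over AD. Around Tmc4, 11 of 12 neighbours were tested and none was called. Pirb, an inhibitory receptor, was 0.54 higher (log2, SE 0.20) with p38KO in AD mice at an adjusted p of 0.661.

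Short windows of the promoters of the 3 detected members are shown because Tmc6 and Tmc8 share a motif that Tmc7 lacks. Each line is 30 bases of the gene's own strand (RefSeq promoters, GRCm38), with an 8-base palindrome in capitals, and the motifs were picked after the promoters had been read.
Tmc7: gcccgcctctgTGACGTCAtctggaacccg
Tmc6: gcaggaacgagTCACGTGAcctttggggcc
Tmc8: cggggttcctgTCACGTGAcccccacccca
The Tmc7 window, chr7:118584717-118584746, holds the cAMP response element TGACGTCA, whose last base lies 42 bases before the RefSeq start. GENCODE places the start of the full transcript further upstream, at 118584736, so that in its annotation the motif begins at base 2 of exon 1. That motif was in 588 of 32851 mouse promoters (1.79%), each 250 bases before to 50 after the start. The Tmc6 and Tmc8 windows, chr11:117780678-117780707 and chr11:117782268-117782297, hold the E-box TCACGTGA, which was in 320 promoters (0.974%). Both motifs read the same on either strand. The Tmc4 promoter held neither. These matches are letters in a window and no measurement of binding was made.

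Mouse-to-mouse variation, with group means removed, was compared between the 3 detected members, a measure that the choice of Tmc7 did not use. Tmc7 and Tmc6 gave Pearson's r = 0.53 (permutation within groups, p = 0.0529, adjusted p = 0.159 over 3 pairs) and Spearman's rho = 0.26 (permutation p = 0.356, adjusted p = 0.431) over 16 mice. Without AD p38+/+ mouse 1 and AD p38KO mouse 4, the 2 farthest on the Tmc7 axis, r was 0.47. Tmc7 and Tmc8 gave r = -0.38 (permutation p = 0.275, adjusted p = 0.413) and rho = -0.25 (permutation p = 0.400, adjusted p = 0.431), and without the same 2 mice r was -0.05, so the negative value rested on those mice. Tmc6 and Tmc8 gave r = 0.29 (permutation p = 0.420, adjusted p = 0.420) and rho = 0.24 (permutation p = 0.431, adjusted p = 0.431), and r was 0.44 without WT p38+/+ mouse 4 and AD p38+/+ mouse 1. No pair passed the threshold.

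**Figure D4:**
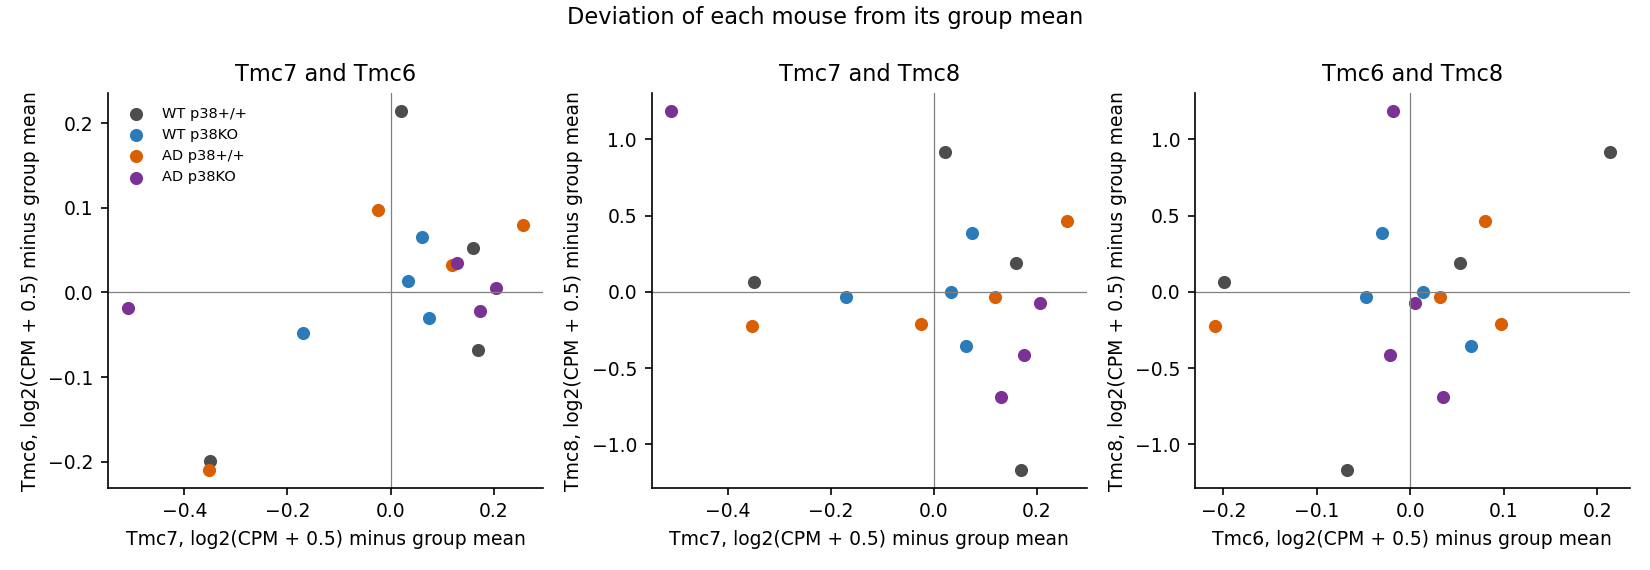
Deviation of each mouse from its group mean in log2(CPM + 0.5), for Tmc7 against Tmc6 (r = 0.53), Tmc7 against Tmc8 (r = -0.38) and Tmc6 against Tmc8 (r = 0.29), with a point a mouse (n = 16) coloured by group. AD p38KO mouse 4 lies at the far left of the first 2 panels.

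The genes whose levels were most like those of Tmc7 over the 16 libraries, by Pearson's r of log2(CPM + 0.5) among the genes tested, were Ppm1l (r = 0.91), Neo1 (0.89), Atmin (0.87), Ndufaf7 (0.85) and Zfp974 (0.84). Since Tmc7 was chosen for its group pattern, the groups themselves enter these values. Ppm1l, a protein phosphatase of the stress kinase pathways, averaged 105.99 ± 13.4 CPM in WT p38+/+ mice, 82.8 ± 3.25 CPM after p38α deletion, 76.345 ± 4.83 CPM with the AD transgenes and 69.8 ± 12.4 CPM with both (SD, n = 4 each). Neo1, the netrin and RGM receptor neogenin, was 15.3 ± 3.46, 10.3 ± 1.47, 10.4 ± 1.47 and 5.06 ± 1.83 CPM in the same order. Atmin, a zinc-finger cofactor of the kinase ATM, averaged 132 ± 15.6 CPM in WT p38+/+ mice but 90.1 ± 21.7 CPM where both manipulations were present. With group means removed, r with Tmc7 was 0.76 for Ppm1l, 0.62 for Neo1, 0.87 for Atmin, 0.64 for Ndufaf7 and 0.46 for Zfp974. These genes were ranked on r over the same mice, so the values with group means removed are no independent support. With the groups kept but without AD p38KO mouse 4, r was 0.86, 0.83, 0.83, 0.76 and 0.79 in the same order of genes.

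For Tmc6 the 5 genes were Prex1 (r = 0.89), a Rac exchange factor, Tmem198b (0.83), Atp9b (0.80), Arhgap45 (0.79) and Gbp7 (0.79), and none of them is shared with Tmc7. For Tmc8 they were Wars (0.87), a tRNA synthetase, Pigt (0.86), Asah2 (0.85), Lipe (0.84) and AC113595.1 (0.83). The Tmc8 values leaned on AD p38KO mouse 4, without which r was 0.76 for Wars, 0.69 for Asah2 and 0.66 for AC113595.1. For Tmc4 they were Gm37802 (0.84), C430014B12Rik (0.83), H1f4 (0.81), Mrrf (0.78) and Arpc4 (0.76), over a gene that was at 0 in 4 mice.

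Known partners and relatives of the TMC proteins held few calls, where at most 1.03% of all genes were called in any comparison. In lists this small, no call is near that share and does not show that levels were stable. Of 7 hair-cell partners of TMC1 and TMC2, 4 were listed and 2 were tested. Cdh23, the tip-link cadherin, stood at 158 ± 16.8 CPM in WT p38+/+ mice and Cib2 at 10.7 ± 2.34 CPM, and neither was called, whereas Lhfpl5 (0.221 ± 0.242 CPM) and Tomt (0.0955 ± 0.0675 CPM) were near the floor. Both EVER partners were tested and neither was called. Cib1 stood at 46.0 ± 7.51 CPM in WT p38+/+ mice with a log2 difference of -0.13 (SE 0.10) for AD. Slc30a1 stood at 7.36 ± 4.39 CPM with a difference of 0.66 (SE 0.34) for p38KO (limma, adjusted p = 0.834).

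Of 28 zinc transporters and metallothioneins, 23 were listed and 22 tested, and 1 was called for AD over both p38 genotypes, beside 1.03% of all genes. Slc39a4, a zinc importer of the plasma membrane, ranged from 12.4 to 18.4 CPM in WT p38+/+ mice and from 10.4 to 16.2 CPM in WT p38KO mice. The AD range was 19.2 to 31.9 CPM with p38α and 19.9 to 28.02 CPM without it. All 8 AD mice lay above all 8 WT mice, and the share of all genes that separate in this way was not counted. The log2 difference was 0.71 (SE 0.15, limma, adjusted p = 0.0199). The call was lost, with a difference of 0.64 to 0.68, when WT p38KO mouse 4 (adjusted p = 0.0547) or either of AD p38+/+ mice 1 and 2 (0.0578 and 0.0533) was left out, and at 0.67 without AD p38KO mice 1 and 4 together (0.0660). Mt1, a metallothionein that binds zinc, had a difference of 0.52 (SE 0.15, adjusted p = 0.123). The median of the 22 genes for AD was -0.05, beside -0.03 over all genes, and for p38KO -0.01 beside -0.01. No gene of this list was called for p38KO.

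The structural relatives of the TMC family, the anoctamins and TMEM63 proteins, were listed for 6 of 13 genes. All of them were tested and none was called, beside at most 1.03% of all genes in any comparison. Tmem63a, an osmosensitive channel, was the highest at 379 ± 35.7 CPM in WT p38+/+ mice, followed by the scramblase Ano6 at 191 ± 24.7 CPM. All 6 had a negative value for AD over both p38 genotypes, with a median of -0.13 beside -0.03 over all genes. For p38KO over both backgrounds 4 of the 6 were negative. None had an unadjusted p under 0.05 in any comparison (limma), and the share of all genes with a negative value was not counted. Of 21 ion channels known from microglia all were listed and 20 tested, and none was called in any comparison, beside the same share of all genes. Hvcn1, the proton channel, stood at 423 ± 46.7 CPM, P2rx7, the ATP-gated channel, at 390 ± 59.1 CPM and the potassium channel Kcnk6 at 353 ± 47.2 CPM in WT p38+/+ mice. The smallest unadjusted p for AD was that of Lrrc8a, the core subunit of the volume-regulated anion channel, with a log2 difference of -0.47 (SE 0.13, limma, adjusted p = 0.105), and for p38KO that of Kcnk13, the tonic potassium channel of microglia, with -0.19 (SE 0.08, adjusted p = 0.817). Kcnk13 averaged 199 and 198 CPM in the WT groups with and without p38α, and 214 and 166 CPM in the AD groups. Lrrc8a averaged 26.3, 29.0, 22.8 and 17.5 CPM in the same order. Both were lowest in AD p38KO mice, whose libraries had the fewest genes detected, and the part of this was not tested.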

How the data were processed

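The authors used STAR against the mm10 build, quantified Ensembl transcripts with Partek Flow (10.0.22.0828) and deposited a gene and a transcript table in CPM, to which 0.0001 had been added, subtracted here. Reads were not recovered, since 73.6 to 80.1% of low values were whole reads within 0.05. Tests were limma-trend (limma 3.58.1, R 4.3.3) on log2(CPM + 0.5) over features that reached 1 CPM in 4 or more libraries, all 16 libraries in 1 model, two-sided, Benjamini-Hochberg adjusted within a comparison, after a check on simulated data. Permutation tests used scipy 1.17.1 (100000 draws for correlations), floors and read numbers cover counting error only, and CPM per kb divided each transcript by its GENCODE M21 length. Named genes were the TMC genes, their transcripts, the 5 genes most alike each member, neighbours within 100 kb, and from each list the smallest p and highest levels. The members and lists were chosen with earlier results of these data known. Alternatives were other pseudocounts, filters, scalings, covariates, a replicate block and leaving out libraries. Same-numbered mice did not vary together (24 pairs, r -0.131 to 0.184, 2 over 0.1). Per the labels each library is a separate mouse.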

Additional observations from a re-analysis of the deposited data

Results flagged for a closer look

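Of 44 sets of 4 values looked at, 3 held a value far from the other 3 mice of its group. This is near the share of about 1 in 20 that chance alone gives, and the sets were not independent. All 3 were in AD p38KO mice. Tmc7 was 13.1 CPM in AD p38KO mouse 4, below the 20.6 to 21.7 CPM of the other 3. The retained-intron transcript of Tmc7 was 0.467 CPM in AD p38KO mouse 2, where the other 3 were at most 0.0298 CPM. The share of that transcript in the Tmc7 level was 2.27% in that same mouse. The level and the share are thus not separate observations, and the other 3 mice lay under the floor of 3 reads. AD p38KO mouse 4 also had the fewest genes detected (15467), and the part of this in its Tmc7 value was not tested.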

How the results depend on the processing

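The direction of Tmc7 held in the 4 pairwise comparisons and both main effects under every alternative run. Since Tmc7 was chosen for that direction, this adds no support to it. No alternative brought Tmc6, Tmc8 or Tmc4 past the threshold in any comparison. The direction of small differences did turn. That of Tmc6 was -0.00387 for p38KO in AD mice after quantile scaling, that of Tmc8 0.0142 for p38KO in WT mice with the replicate block and sex, that of Tmc5 0.0276 (quantile scaling) and 0.295 (without AD p38KO mice 1 and 4, chosen after seeing the data) for p38KO over both backgrounds, and that of the full Tmc6 transcript 0.00368 without those 2 mice. The cause was not tested. Replicate numbers did not pair the mice, and with the replicate block 131 genes were called for AD and 11 for p38KO. With the block and sex together Slc39a4 was 0.66 higher with AD (limma, adjusted p = 0.0771) and lost its call.

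Gene calls for AD in p38+/+ mice numbered 30 with only the groups compared. For AD in p38KO mice they numbered 68 with sex as covariate and 20 without AD p38KO mice 1 and 4. For p38KO in WT mice they were 2 with no filter and 3 without those mice. For p38KO in AD mice they were 4 with a pseudocount of 1 CPM, with only the groups compared, with sex or with a label ending in S0 as covariate, and 2 without those mice. For p38KO over both they were 7 with a pseudocount of 0.1 CPM, and for the difference between AD effects 4 with no filter. Transcript calls for p38KO were 30 with the replicate block and sex and 34 without those mice.

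Leaving out 1 mouse at a time gave 25 to 59 genes for AD in p38+/+ mice, 22 to 54 for AD in p38KO mice, 2 to 10 for p38KO in AD mice, 95 to 182 for AD, 6 to 15 for p38KO, 0 to 1 for the difference between AD effects and 21 to 65 transcripts for p38KO. The lowest counts came without AD p38+/+ mouse 1 (25, 2 and 95), WT p38KO mouse 4 (22) or AD p38+/+ mouse 3 (6 and 21). Tmc6 ranged from -0.123 to 0.0148 for p38KO in WT mice, -0.0485 to 0.0537 in AD mice and -0.0525 to 0.0180 over both, and its full transcript from -0.0434 to 0.0125. Tmc8 ranged from -0.570 to 0.124 for p38KO in WT mice, and its transcript ENSMUST00000106334 from -0.0708 to 0.427 for AD. Tmc4 ranged from -0.162 to 0.0994 CPM for AD in p38KO mice. The log2 ratio of Tmc6 to Tmc8 ranged from -0.0684 to 0.694 for AD in p38+/+ mice and -0.177 to 0.586 for p38KO in WT mice. Depth limits Tmc4 and the retained-intron Tmc7 transcript, which lay at a few reads or none in many libraries.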
